A study of Mus musculus with 23 samples.

Results

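Peripheral blood (PB) neutrophils of mice lacking Piezo1 in the blood lineage were compared with PB neutrophils of WT mice by bulk RNA-Seq. The comparison rests on 4 of the 23 libraries of the study, 2 labelled cko and 2 labelled wt. Members were the genes with an FPKM of at least 1 (a read level corrected for transcript length and library size) in at least 2 of these 4 libraries, and 7256 of the 21878 genes in the table met that rule. No difference between the genotypes entered this choice. Closest to the limit on the inside was Tatdn1, with 0.690 and 0.499 FPKM in WT and 1.09 and 1.00 in conditional knockout (cKO) libraries. Closest on the outside was Gm10651, with 0.999 and 0.877 FPKM in WT and 1.26 and 0.698 in cKO.

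According to the study's methods, the cKO mice carried loxP-flanked Piezo1 alleles and the Vav1-iCre transgene, which is active throughout the hematopoietic system, so that red cell precursors, platelets and all leukocytes were targeted together with neutrophils. The labels describe the controls of these libraries only as wt. In the study's imaging the mice named WT carried floxed Piezo1 alleles without the deletion, and whether the same holds for the sequenced controls is not stated there. The methods describe young adult mice of either sex, and no treatment is named for this comparison. Neutrophils were enriched by negative selection and sorted as CD45+CD11b+Ly6G+ cells. The same design was run on lung neutrophils of both genotypes, and a separate set of 3 WT PB libraries came from a comparison of tissues.

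PIEZO1 is a mechanically gated cation channel that opens when membrane tension rises and lets calcium into the cell. Neutrophils are short-lived granulocytes that leave the marrow with preformed granules, circulate, and squeeze through capillaries narrower than themselves. Their transcripts include large amounts of granule, chemokine and immediate early messages, and the last of these are induced within minutes by handling, adhesion or calcium signals.

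The 4 libraries held 9621120 to 15015766 reads on genes, recovered from the FPKM values and group means of normalized counts that the authors deposited. WT libraries showed reads on 14103 and 14200 genes and cKO libraries on 11217 and 11752. The difference lay in weakly expressed genes, since 1200 genes had at least 3 reads in both WT libraries and none in either cKO library, against 194 genes in the opposite direction. Olfactory receptor genes, which neutrophils are not known to use, held 40.1 and 36.6 rpm (reads scaled to a common library total) in WT and 18.6 and 20.3 in cKO. Libraries of a group were close to each other, and the biological coefficient of variation came to 2.17% within WT and 5.38% within cKO. They also shared their missing genes. Among 926 genes at 2 to 4 rpm in WT, 57 were at 0 reads in cKO replicate 1 and 48 in cKO replicate 2, and 41 of these were at 0 in both, where the product of both shares gives 2.95 genes. With the genotypes exchanged, 18 and 16 of 962 genes were at 0 in the WT libraries and 12 in both, where the product gives 0.299. The product treats genes of a level as alike, and genes that differ between the genotypes exceed it too. The excess therefore does not show how the replicates were made. No source used here states that the replicates came from separate animals, so p-values measure the spread between these libraries, which may be technical. An exact permutation test of 2 against 2 libraries cannot go below p = 0.333, and all tests below come from limma fits across all genes with Benjamini-Hochberg adjustment over every gene tested. Values in parentheses after levels are log2 fold changes of cKO over WT ± SE on the log2(FPKM + 1) scale, which understates the change of weak genes.

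**Figure D1:**
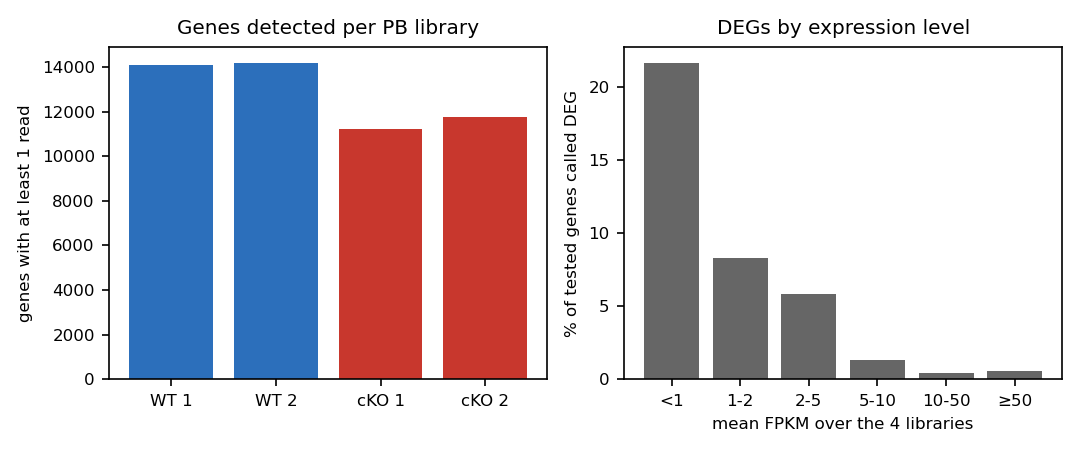
Left, genes with at least 1 read in each PB library; right, the percentage of tested genes called as DEG by mean FPKM over the 4 libraries. WT libraries detected 14103 and 14200 genes and cKO libraries 11217 and 11752, and the called share fell from 21.7% below 1 FPKM to 0.540% at 50 FPKM and above.

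Neutrophil genes were abundant in both groups. Of the 14 genes that identify neutrophils all were tested, and the granulocyte colony-stimulating factor receptor gene Csf3r read 1361 and 1319 FPKM in WT and 1247 and 1254 in cKO. S100a8, a subunit of calprotectin, was the most abundant of them at 78314 and 81892 FPKM in WT and 66040.1 and 73439 in cKO (log2 fold change -0.20 ± 0.05, SE; limma adjusted p = 0.019). Ly6g, the sort antigen, read 93.6 and 101 FPKM in WT and 105 and 114 in cKO, and the genotypes did not differ by the test (adjusted p = 0.051). Of the 14 genes, 4 rose and 3 fell, none by more than 0.33 on the log2 scale. Y-linked Eif2s3y was present at 52.4 and 55 FPKM in WT and 59.7 and 54.4 in cKO, so male cells were in all 4 libraries.

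Most markers of other leukocytes were weak, and their part in the differences was not tested. Of 8 B cell markers and 7 basophil and mast cell markers none reached the filter, and summed FPKM over each list stayed between 0.0125 and 1.5. Of 13 T and NK cell markers 11 were under 1 FPKM in every library, and the list summed to 4.78 and 4.44 FPKM in WT and 5.98 and 6.85 in cKO, with Cd3g, a T cell receptor subunit, rising from 0.593 and 0.651 to 1.32 and 2.0 FPKM. The 15 monocyte and macrophage markers, 10 of them under 1 FPKM in all 4 libraries, summed to 411 and 416 FPKM in WT and 371 and 370.2 in cKO. Of 5 tested 3 fell, where 23.2% of all tested genes did. Csf1r, the receptor for macrophage colony-stimulating factor, fell from 128 and 126 to 117 and 114 FPKM, a call lost under 5 of the alternatives. Another was Nr4a1, which is counted again among the immediate early genes below. The 8 eosinophil markers summed to between 30.6 and 36.2 FPKM in the 4 libraries, with Ear2, an eosinophil ribonuclease, higher (not called under 10 of the alternatives) and Siglecf lower among 3 tested. The 11 dendritic cell markers summed to between 21.3 and 23.3 FPKM, with Itgax lower among 2 tested. Of 14 platelet markers 1 was tested, Clec1b, a platelet lectin receptor, and it fell from 1.23 and 2.16 to 0.444 and 0.181 FPKM, while the platelet chemokine gene Pf4 had no read in any library.

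Piezo1 itself could not be used to check the genotype. Its transcript (chr8:122481698-122551329, mm10) held 5 and 5 reads in WT and 3 and 10 in cKO, which is 0.0407 and 0.0357 FPKM in WT and 0.0335 and 0.0758 in cKO. The ratio of cKO to WT rpm was 1.54, with a 95% counting interval from 0.624 to 3.93, so at this depth no difference was detectable. Deleting floxed exons need not remove the other exons from a count over the whole gene. The 3 WT PB libraries of the tissue comparison read 0.267, 0.414 and 0.323 FPKM, and Piezo2 held 2 and 2 reads in WT and none in cKO.

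The label could be checked at the site of the transgene. The Vav1-iCre line is known to carry its insertion within Commd10, which encodes a subunit of the COMMD/CCDC22/CCDC93 endosomal sorting complex. Commd10 (chr18:46958819-47087995) read 0.601 and 0.165 FPKM in WT and 65.7 and 64 in cKO, which is 169-fold higher by the group means, from 16 and 5 reads in WT and 1277 and 1831 in cKO (5.59 ± 0.14; limma adjusted p = 3.08e-06). Both cKO libraries lay far above both WT libraries. In lung neutrophils it read 1.3 and 1.45 FPKM in WT and 41.2 and 44.4 in cKO, and the 3 WT PB libraries of the tissue comparison read 0.363, 0.994 and 0.346. The labels and Commd10 thus went together in all 8 libraries of the Piezo1 experiment. Vav1, whose promoter drives the recombinase, read 76.2 and 77.1 FPKM in WT and 77.2 and 75.4 in cKO and did not differ by the test (log2 fold change -0.01 ± 0.05, adjusted p = 0.9). In this comparison the loss of Piezo1 and the transgene with its insertion cannot be told apart, because the labels name no group with the transgene alone.

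At adjusted p alone 26.5% of all tested genes were higher in cKO and 23.2% lower, and these shares are the background for the counts of gene groups above, here and below. Of 7 tested genes within 2 Mb of Commd10, 3 rose and 2 fell. Apart from Commd10, the largest change there was in Ap3s1, an adaptor subunit of endosomal transport, which rose from 32.2 and 31.1 to 42.9 and 43.6 FPKM (0.44 ± 0.05). Fem1c, a ubiquitin ligase substrate receptor, fell from 60.2 and 57.4 to 45.4 and 45.4 FPKM (-0.37 ± 0.05). Of 26 tested genes within 1 Mb of Piezo1, 4 rose (15.4%) and 9 fell (34.6%), and the median was -0.10. Cdt1, a DNA replication licensing factor next to Piezo1, fell from 1.59 and 2.07 to 0.332 and 0.258 FPKM (-1.12 ± 0.12). Mvd, an enzyme of cholesterol synthesis, fell from 15.8 and 15.5 to 7.44 and 7.34 FPKM (-0.99 ± 0.07). Among the other COMMD family genes, Commd9 rose from 0.129 and 0.453 to 2.3 and 1.62 FPKM, and 5 of 12 family members rose in all with none lower. Commd9 and Commd10 passed the filter only through the cKO libraries. Of the 2 tested Vav genes neither was called.

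Across all 7256 genes, 265 were differentially expressed genes (DEGs), which is 3.65%. The call asked for an adjusted p under 0.05 together with a log2 fold change beyond 1 in either direction. Of these, 122 were higher in cKO (1.68%) and 143 lower (1.97%). At adjusted p alone 3607 genes passed, in the shares given above. Most changes were small, with 79.8% of genes within 0.5 of zero on the log2 scale and a median of 0.02. No DEG had overlapping groups, which the call itself favours, and the share over all tested genes was not counted. DEGs were mostly weakly expressed, as 105 higher and 130 lower ones lay among the 2869 genes with a mean below 5 FPKM (8.19%), against 17 and 13 among the 4387 others (0.684%). Of the DEGs, 84 passed the filter only through both WT libraries and 75 only through both cKO libraries, and such genes had to differ. Those named in the text include Commd9, Commd10, Alas2, Bpgm, Pim2, Pdia4, Mrps22 and Psmg4 through cKO. Through WT they include Cdt1, Clec1b, Cxcl3, Ciart and Atp5s. The unequal detection of weak genes moved with the genotype, and its part in the low DEGs was not tested beyond thinning all libraries to equal depth, which gave 270 DEGs. By chromosome, called shares ran from 1.74% on chromosome 10 to 5.54% on chromosome 15, apart from 0 of 3 tested genes on chromosome Y.

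**Figure D2:**
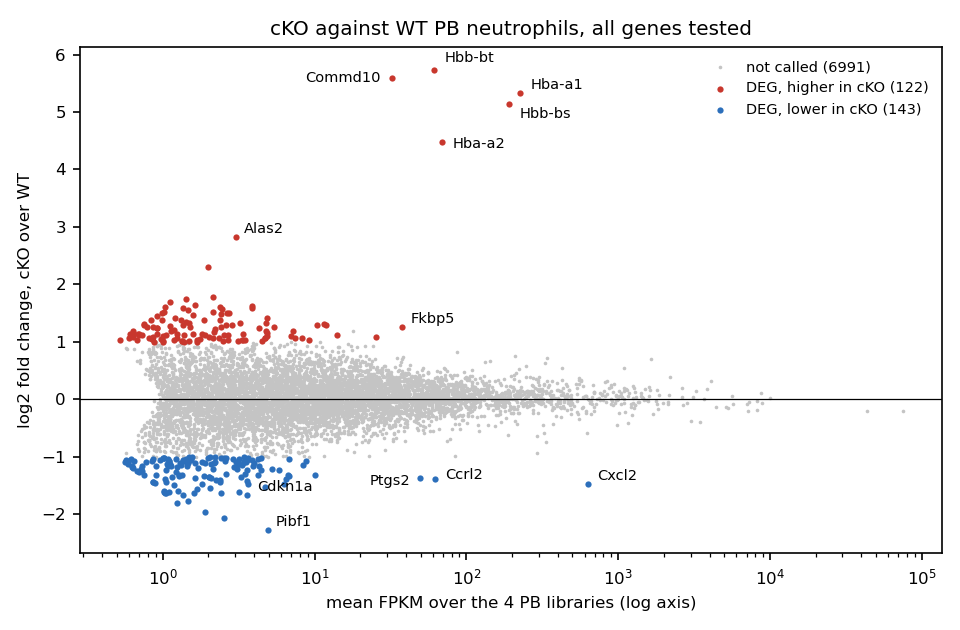
Log2 fold change of cKO over WT against mean FPKM (log axis) for all 7256 tested genes, with 122 higher DEGs in red and 143 lower DEGs in blue. The globin genes and Commd10 lie above 4, and Cxcl2, Ccrl2 and Ptgs2 stand out below -1 among the well-expressed genes.

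Besides Commd10, the largest rises were in hemoglobin genes. Red cells carry alpha and beta globin around heme, and maturing red cells keep these messages after losing the nucleus. Hba-a1, an alpha globin gene, read 9.36 and 10.7 FPKM in WT and 432 and 449.8 in cKO (5.32 ± 0.07, adjusted p = 7.81e-08). Hbb-bs, a beta globin gene, read 9.73 and 9.28 FPKM in WT and 338 and 408 in cKO (5.15 ± 0.09, adjusted p = 3.67e-07). Hba-a2 rose from 4.04 and 5.8 to 101 and 165 FPKM and Hbb-bt from 1.69 and 0.951 to 134 and 108. The 2 alpha genes are near-identical copies, as are the 2 beta genes, so the split of reads within each pair is uncertain. In every case both cKO libraries exceeded both WT libraries by more than 10-fold.

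Other genes of red cells were mixed. Alas2, the erythroid enzyme that starts heme synthesis, had no read in WT and 6.2 and 5.96 FPKM in cKO, which is at least 56.3-fold higher when WT is set at its floor of 3 reads per library. Bpgm, which makes 2,3-bisphosphoglycerate, rose from 0.839 and 0.951 to 5.27 and 3.58 FPKM (1.5 ± 0.16). Of 31 erythroid markers measured, 10 were tested and 7 of these rose as DEGs, while Slc25a37, the mitochondrial iron importer, fell from 5.82 and 5.65 to 3.56 and 4.24 FPKM. The remaining 21 were under 1 FPKM in all 4 libraries and 5 of them had no read at all, among these Hemgn, Car1 and Car2. Slc4a1, the band 3 anion exchanger, held 3 and 0 reads in WT and 2 and 0 in cKO. Klf1, an erythroid transcription factor, held 1 and 1 reads in WT and none in cKO, and its partner Gata1 held 5 and 1 in WT and none in cKO. Summed over the list the markers gave 114.2 and 114.0 FPKM in WT and 1111 and 1233 in cKO, and without the 4 globins 89.4 and 87.3 in WT and 106 and 102 in cKO. In bulk samples fewer cells of a type and less RNA per cell cannot be told apart, and whether red cells passed the lysis and sort was not tested. Rescaling the libraries to a common total without the erythroid markers gave 258 DEGs.

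The globin rise was not found in lung, and the test of that difference, with its limit from tissue preparation, is given at the end. In lung neutrophils Hba-a1 read 1.44 and 1.9 FPKM in WT and 0 and 1.0 in cKO, and Hbb-bs read 2.52 and 2.29 in WT and 0.319 and 0.219 in cKO. The WT PB libraries of the tissue comparison read 0, 0 and 0.481 FPKM for Hba-a1 and 0 in all 3 for Hbb-bs, Hbb-bt and Hba-a2.

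To show the sequence in front of 3 of the genes that rose together, stretches upstream of their RefSeq starts (GRCm38.p6) are printed 5′ to 3′ on the gene's strand, with the GATA motif in capitals. The motif was searched as AGATAA or TGATAA on both strands in the 250 bases before each start, and 16.6% of all 32851 promoters held it. Alas2 (chrX:150547271-150547366, plus strand), Hbb-bs (chr7:103828103-103828178, minus strand) and Hba-a1 (chr11:32283429-32283524, plus strand) each held it.
Alas2: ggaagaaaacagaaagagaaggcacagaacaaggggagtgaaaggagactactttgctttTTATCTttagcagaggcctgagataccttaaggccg
Hbb-bs: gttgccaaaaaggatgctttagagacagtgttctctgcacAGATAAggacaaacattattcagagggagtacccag
Hba-a1: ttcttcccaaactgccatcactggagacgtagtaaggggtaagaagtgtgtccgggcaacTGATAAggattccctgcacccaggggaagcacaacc
The match lay 86 bases before the start of Alas2, 210 before that of Hbb-bs and 183 before that of Hba-a1, counted to its first base. Among the 7 erythroid markers that rose, 6 had a promoter in the table and 4 of these held the motif. Of all 32 named erythroid markers 21 had promoters and 13 held it, so the motif did not set apart those that rose. Counted by promoter, as in the share of all promoters, it was in 4 of 6 and 13 of 25. Such a match is a description of the letters and says nothing of binding.

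Among genes with a cKO mean of at least 5 FPKM, the largest rises beyond Commd10 and the erythroid genes were in genes below 20 FPKM. Cyp4f16, a cytochrome P450 of the family that hydroxylates fatty acids and leukotrienes, rose from 1.12 and 1.63 to 6.63 and 6.02 FPKM (1.63 ± 0.13). Tab1, an activator of the kinase TAK1, rose from 1.57 and 1.29 to 5.81 and 6.75 FPKM (1.59 ± 0.11). Pik3ip1, an inhibitor of PI3 kinase, rose from 1.94 and 2.46 to 7.61 and 7.33 FPKM. Zfp746, a zinc finger repressor, rose from 2.34 and 2.23 to 7.21 and 7.41, Igflr1, a receptor of the TNF receptor type, from 1.66 and 1.18 to 5.78 and 4.35, and Tmco6 from 5.61 and 6.88 to 16.4 and 17.4 FPKM. All 6 had both cKO libraries above both WT libraries, which the choice of named genes requires.

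The falls were led by 2 kinds of genes, the inflammatory genes Cxcl2, Ccrl2 and Ptgs2 at high level and a mixed set at low level. Cxcl2, the neutrophil-attracting ligand of CXCR2, read 925 and 944 FPKM in WT and 335 and 338 in cKO, which is 36% of WT (-1.47 ± 0.04, adjusted p = 3.08e-06). Ccrl2, an atypical receptor that presents chemerin, read 92.1 and 87.5 FPKM in WT and 34.8 and 32.9 in cKO, 37.7% of WT (-1.38 ± 0.06, adjusted p = 3.62e-05). Ptgs2, the inducible cyclooxygenase COX-2, read 71.1 and 72.7 FPKM in WT and 29.4 and 25.1 in cKO, 37.8% of WT (-1.37 ± 0.08, adjusted p = 0.000171). In all 3 the libraries of a group lay within a narrow band and the groups were far apart. Thbs1, the secreted glycoprotein thrombospondin-1 that restrains vessel growth, fell from 5.93 and 5.51 to 1.56 and 1.44 FPKM (-1.43 ± 0.10).

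Of the weaker falls with a WT mean of at least 5 FPKM, the largest was in Pibf1, a centrosomal protein gene. It fell from 8.84 and 8.74 to 1.09 and 0.952 FPKM (-2.28 ± 0.09, limma adjusted p = 3.62e-05). Cdkn1a, the cyclin-dependent kinase inhibitor p21, fell from 5.74 and 6.25 to 1.17 and 1.25 FPKM (-1.66 ± 0.10). H2-M3, a nonclassical class I molecule that presents formylated peptides, fell from 9.95 and 9.63 to 2.77 and 2.97 FPKM. Fance, a Fanconi anemia protein gene, fell from 6.58 and 5.15 to 1.39 and 1.54, and Ces1d, a carboxylesterase gene, from 8.06 and 6.91 to 2.33 and 1.58. Gcc1, a golgin gene, fell from 10.2 and 9.54 to 3.04 and 3.33 FPKM, Mrpl13, a mitochondrial ribosomal protein gene, from 5.4 and 5.0 to 0.529 and 1.71, and 1700037C18Rik from 4.19 and 6.16 to 1.26 and 1.55. The cKO libraries differed most from each other for Mrpl13.

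**Figure D3:**
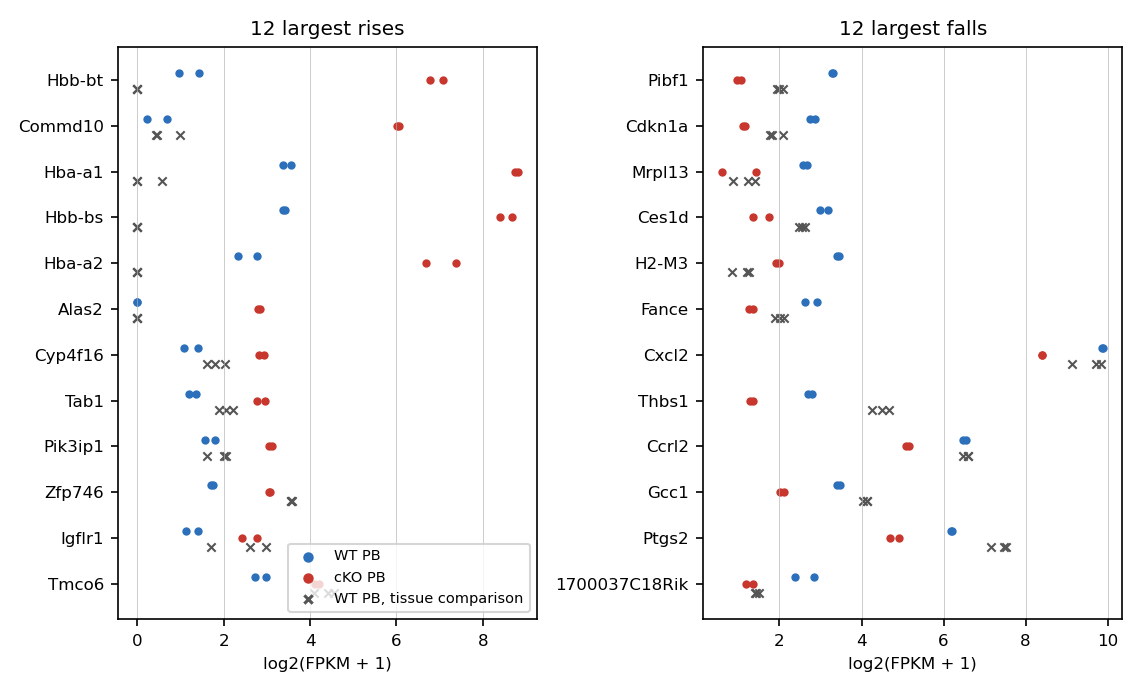
Levels of the 12 largest rises and 12 largest falls among DEGs whose higher group averaged at least 5 FPKM, as log2(FPKM + 1). Each library is 1 point, for WT PB (blue), cKO PB (red) and the 3 WT PB libraries of the tissue comparison (crosses). Blue and red do not overlap for any gene, which the choice of genes requires, while the crosses lie nearer to blue for 15 of the 24 genes and nearer to red for 9.

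The 3 WT PB libraries of the tissue comparison give these levels a second WT value, though from a separate table and experiment. For Cxcl2 they read 836, 918 and 562 FPKM, for Ccrl2 95.5, 95 and 87.2 and for Ptgs2 175, 182 and 141, all above both cKO libraries. For Cdkn1a they read 2.55, 2.43 and 3.25 FPKM, for Pibf1 2.99, 3.22 and 2.84 and for H2-M3 1.39, 1.3 and 0.793, all below both WT libraries of the Piezo1 experiment. For Zfp746 they read 10.8, 10.9 and 10.7 and for Tmco6 20.4, 22.6 and 16, closer to cKO. On the log2(FPKM + 1) scale the mean of the 3 lay nearer to WT than to cKO for 87 of the 122 higher DEGs and for 65 of the 143 lower DEGs. The 2 sets of WT libraries also differed in genes that did not separate the genotypes. Cxcr4, the marrow retention receptor, read 601, 609.9 and 569.8 FPKM in the tissue comparison, 56.2 and 56.2 in WT and 59.6 and 61.9 in cKO.

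Genes of the NF-kB system, a pathway that drives inflammatory transcription, fell more often than they rose. NF-kB factors are held by inhibitors of the IkB family, which they induce in turn as feedback. Of 23 tested members 13 fell and 2 rose, against backgrounds of 23.2% and 26.5%, and the list median was -0.25 against 0.02 for all genes. Tnfaip3, the feedback deubiquitinase A20, fell from 15.1 and 14 to 8.99 and 8.33 FPKM (-0.69 ± 0.08). The subunit gene Nfkb2 fell from 18.2 and 17.9 to 10.5 and 11.6 and Rel from 8.04 and 7.58 to 4.67 and 5.22 FPKM. Nfkbia, the inhibitor IkB-alpha and the most abundant member, fell from 622 and 621 to 523 and 458 FPKM (-0.34 ± 0.06). The 2 rises were Nfkb1, from 15.1 and 15.8 to 20.7 and 19.2, and Zc3h12a, the RNase regnase-1, from 2.0 and 1.95 to 2.96 and 2.52. Rela read 57.9 and 59.7 FPKM in WT and 59 and 61.3 in cKO and did not pass the test. None of the 23 was a DEG. With either WT library left out 8 members fell, and Nfkb1 and Zc3h12a lost their calls under some alternatives.

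Immediate early and MAP kinase feedback genes moved likewise. Of 25 tested members 15 fell and 2 rose, none as a DEG, with a median of -0.19. Nr4a1, an orphan nuclear receptor, fell from 41.7 and 40.9 to 24.6 and 24.3 FPKM (-0.73 ± 0.06). Egr1, a zinc finger transcription factor, fell from 356 and 357 to 219.7 and 238 (-0.64 ± 0.05), and Dusp2, a phosphatase of MAP kinases, from 16.7 and 15.8 to 10.5 and 8.6 (-0.72 ± 0.10). Fos, among the most abundant, fell from 5324 and 5371 to 5069 and 4673 FPKM, a change of -0.14 ± 0.04 (adjusted p = 0.04). Klf2 rose from 407 and 409 to 462 and 525 FPKM and Dusp6 from 168 and 163 to 179 and 180.4, a call that 9 of the alternatives did not make. With either WT library left out 8 members fell.

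To show the kappa B motif, the classic NF-kB site, in front of genes that fell, stretches upstream of RefSeq starts (GRCm38.p6) follow with the motif in capitals. It was searched by its consensus on both strands in the 250 bases before each start, and 7.25% of all 32851 promoters held it. The stretches are from Cxcl2 (chr5:90903742-90903842, plus strand), Ccrl2 (chr9:111057549-111057634, minus strand) and Tnfaip3 (chr10:19015496-19015595, minus strand).
Cxcl2: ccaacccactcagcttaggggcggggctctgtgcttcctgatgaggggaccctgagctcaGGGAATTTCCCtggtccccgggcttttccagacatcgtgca
Ccrl2: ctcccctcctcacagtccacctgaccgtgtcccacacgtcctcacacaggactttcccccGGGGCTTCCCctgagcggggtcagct
Tnfaip3: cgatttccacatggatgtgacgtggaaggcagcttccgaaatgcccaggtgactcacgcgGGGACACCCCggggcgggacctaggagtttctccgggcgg
In Cxcl2 the capitals hold 2 overlapping matches. The first matching base lay 97 bases before the start in Cxcl2, 56 in Ccrl2 and 125 in Tnfaip3. Of the 13 NF-kB list members that fell, 11 had promoters in the table and 8 of these held the motif, and of all 26 named members 22 had promoters and 11 held it. Some genes have several promoters. Counted by promoter, as in the share of all promoters, the motif was in 10 of 16 and 13 of 28. Many genes of the list are known as NF-kB targets, so the motif is no separate evidence about these libraries.

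Among chemokines and cytokines, 8 of 21 tested members fell and 3 rose. Besides Cxcl2, Cxcl3, a further CXCR2 ligand, was a DEG and fell from 3.35 and 3.66 to 0.715 and 0.416 FPKM (-1.53 ± 0.13). Cxcl3 reached the filter only in WT. Osm, oncostatin M, fell from 382 and 389 to 205 and 199 (-0.93 ± 0.04). Il1b, interleukin-1 beta, among the most abundant of the list, fell from 3934 and 3889 to 3000.2 and 2969 FPKM (-0.39 ± 0.03). Ccl4 fell from 56.6 and 66.9 to 38.8 and 46.2, and Ccl6, a macrophage attractant, rose from 3681 and 3642 to 4362 and 4750.0 (0.31 ± 0.05). The list median was -0.01.

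Receptors of cytokines and chemokines changed in both directions, with 10 of 33 tested members higher and 11 lower and a median of 0.01. Il10ra, the ligand-binding chain for interleukin-10, fell from 32.5 and 28.8 to 15.1 and 14.8 FPKM (-0.99 ± 0.07). Tgfbr1, the type I receptor for TGF-beta, rose from 5.29 and 5.28 to 9.44 and 9.33 (0.72 ± 0.08), and Il6ra from 63.6 and 60 to 90.2 and 85 (0.50 ± 0.06). Fpr1, the formyl peptide receptor, rose from 503 and 497 to 625 and 634 FPKM. Cxcr2 read 1417 and 1424 FPKM in WT and 1464 and 1463 in cKO and was not called.

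Angiogenic factors, genes tied to vessel growth, fell in 8 of 17 tested members and rose in 3, and 3 of the falls were DEGs (Cxcl2, Thbs1 and Ptgs2). The list holds both promoters of vessel growth and Thbs1, an inhibitor of it. Vegfa, the main endothelial growth factor, read 4.09 and 4.93 FPKM in WT and 2.24 and 2.42 in cKO (-0.72 ± 0.11, adjusted p = 0.0021), below the fold limit for a DEG. Hif1a, the hypoxia-inducible factor subunit, fell from 30.6 and 29.5 to 20.7 and 18.7 FPKM (-0.59 ± 0.07). Spp1, osteopontin, rose from 8.33 and 9.24 to 13.5 and 11 and Mmp8, neutrophil collagenase, from 745 and 745 to 962 and 911. The list median was -0.02.

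Of 9 genes that the study assayed in mouse cells by qPCR or antibody, 6 were tested in blood, and Cxcl2, Vegfa and Il1b fell. The study chose these genes itself, so their direction is no independent evidence. Cd274, PD-L1, read 19.4 and 19.3 FPKM in WT and 17.9 and 18.5 in cKO (log2 fold change -0.09 ± 0.06, adjusted p = 0.29). Ccl3 read 85.4 and 101 FPKM in WT and 93.5 and 98.4 in cKO (0.04 ± 0.08, adjusted p = 0.67) and Hilpda, a lipid droplet protein induced by hypoxia, 1.03 and 0.903 FPKM in WT and 0.940 and 1.15 in cKO (0.06 ± 0.11, adjusted p = 0.69). None of these 3 passed the test. Cxcl1 held 6 and 5 reads in WT and none in cKO, Il6 had no read in any of the 4 libraries, and Piezo1 is given above.

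**Figure D4:**
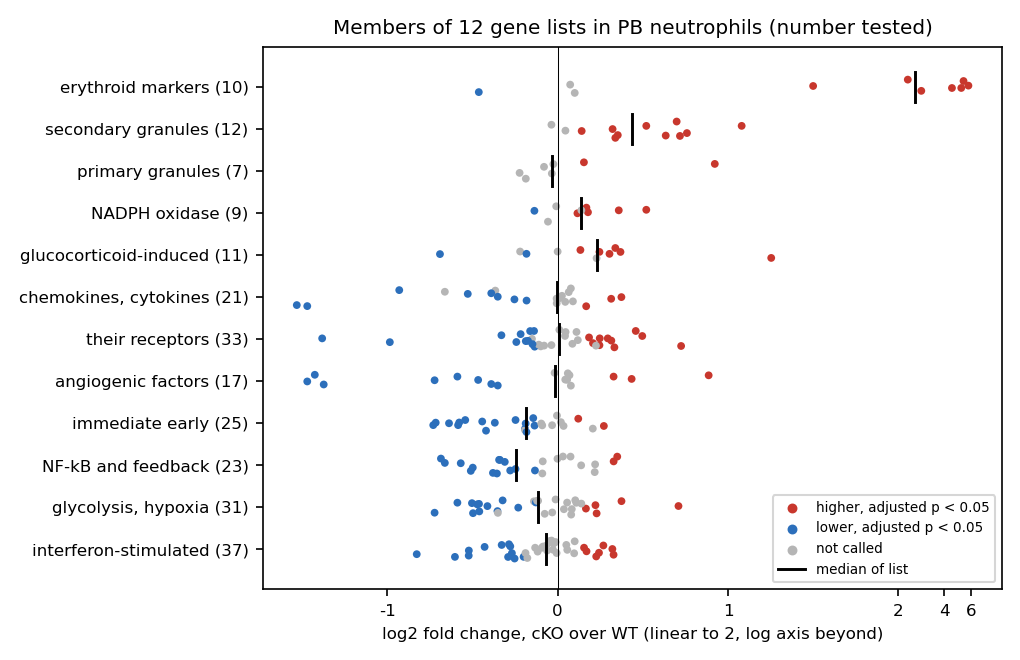
Log2 fold change of the tested members of 12 gene lists (axis linear to 2, log beyond), 1 point per gene, red for higher and blue for lower at adjusted p below 0.05, grey for the rest, with a bar at each median. Erythroid markers reach 5.73, the NF-kB and immediate early lists lie mostly below 0 with medians of -0.25 and -0.19, and secondary granule genes lie mostly above 0 with a median of 0.44.

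Genes of secondary granules, which neutrophils make in the marrow before release, rose in 10 of 12 tested members with none lower, against a background of 26.5% (median 0.44). Ltf, lactoferrin, rose from 263 and 257 to 407 and 401 FPKM (0.63 ± 0.04). Camp, the cathelicidin precursor, rose from 246 and 271 to 400.0 and 452 (0.72 ± 0.07), Ngp, neutrophilic granule protein, from 1249 and 1257 to 1992 and 2078 (0.70 ± 0.04), and Chil3 from 164 and 146 to 262 and 264 (0.76 ± 0.06). Orm1, an acute-phase glycoprotein and the only DEG of the list, rose from 0.487 and 1.45 to 2.67 and 3.44 FPKM. Lcn2, lipocalin-2, read 1289 and 1289 FPKM in WT and 1273 and 1390.2 in cKO and was not called (adjusted p = 0.46).

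Genes of other granules did not show the same count. Of 7 tested members of the primary granule list 2 rose and none fell, and neither of the 2 encodes a granule content protein. Serpinb1a, an inhibitor of neutrophil proteases, rose from 17 and 15.8 to 31.3 and 32.6 FPKM. The other was Igsf6, a membrane receptor gene. Of 10 tested tertiary granule genes 1 rose, Mmp8, and 3 fell, among them Mmp25 from 18 and 18.6 to 15.7 and 16 FPKM. Of 7 tested proliferation genes 2 rose and 2 fell, and Pcna, the replication clamp, fell from 15.8 and 15.4 to 11.2 and 10.8. Of 13 tested genes of marrow release and ageing 3 rose and 3 fell, and Cxcr4 was not called. Of 9 NADPH oxidase genes, which make the oxidative burst, 5 rose and 1 fell. Cybb, the catalytic subunit, rose from 18.4 and 17.8 to 27.1 and 25.8 FPKM (0.52 ± 0.06), while its partner Cyba fell from 1282 and 1266 to 1125 and 1193 (-0.14 ± 0.04). Of 24 tested granulocyte transcription factors 5 rose and 6 fell, with Cebpa, needed for granulocyte commitment, rising from 6.19 and 7.18 to 13.1 and 14.3 FPKM (0.94 ± 0.09) and Stat5a falling from 5.31 and 5.31 to 2.52 and 2.71 (-0.81 ± 0.09).

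Other mechanically gated or volume-sensing channels were mostly weak. Of 21 such genes 6 were tested, 1 rose and 2 fell. Trpv2, a calcium-permeable channel, was the most abundant and rose from 64.1 and 63.6 to 80.3 and 74 FPKM (0.27 ± 0.06). Trpm7, a channel fused to a kinase, fell from 2.11 and 1.88 to 0.766 and 0.718 FPKM (-0.78 ± 0.10), and Tmem87a from 3.67 and 2.87 to 2.32 and 1.84. Trpv4 held 4 and 7 reads in WT and 0 and 3 in cKO.

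Of 30 tested genes of calcium entry and calcineurin signalling 6 rose and 7 fell, with a median of 0.03. Stim2, a sensor of calcium in the endoplasmic reticulum, was the only DEG and fell from 6.46 and 6.11 to 2.47 and 2.08 FPKM (-1.16 ± 0.10). Orai1, the store-operated channel pore, rose from 113 and 110.2 to 146 and 152 (0.41 ± 0.05), and Trpm2 fell from 27.8 and 28.5 to 21 and 20 (-0.44 ± 0.06). Of 31 tested genes of the actin cytoskeleton and YAP targets 9 rose and 5 fell. Ezr, ezrin, which ties actin to the membrane, rose from 182 and 179 to 262 and 261 FPKM (0.53 ± 0.04), and Flna, filamin A, an actin cross-linker, fell from 48.9 and 50.3 to 29.3 and 29.7 (-0.73 ± 0.05). Of 20 tested adhesion genes 8 rose and 6 fell, none as a DEG. Icam2 rose from 8.97 and 10.6 to 16.6 and 16 FPKM and Itgam, the CD11b sort antigen, fell from 204 and 199 to 181 and 175 (-0.18 ± 0.04).

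Of 26 tested pattern recognition genes 8 rose and 4 fell. Tlr7, the endosomal receptor for single-stranded RNA, was a DEG and rose from 2.76 and 2.74 to 8.87 and 7.18 FPKM (1.26 ± 0.11). Nod1, which senses bacterial peptidoglycan, fell from 29.1 and 28.6 to 18 and 18.4 (-0.64 ± 0.06). Of 14 tested phagocytosis and complement receptors 5 rose and 5 fell, with Fcgr2b, the inhibitory Fc receptor, rising from 16.3 and 18.8 to 28 and 26.7 FPKM and Cd14 falling from 240.0 and 251 to 198 and 169.8. Of 37 tested interferon-stimulated genes 7 rose and 12 fell, none as a DEG, with a median of -0.07. Ifit2 fell from 6.13 and 6.44 to 3.06 and 3.15 FPKM and Rsad2, viperin, rose from 59.9 and 55.2 to 74 and 70.2.

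Stress and metabolic lists held single large changes. Of 21 tested p53 target and stress genes 2 rose and 4 fell, with Cdkn1a the only DEG among them. Of 11 tested glucocorticoid-induced genes 6 rose and 2 fell. Fkbp5, a cochaperone that glucocorticoids induce, rose from 22.2 and 21.7 to 55.4 and 52.2 FPKM (1.25 ± 0.06, adjusted p = 7.06e-05), while Tsc22d3, also induced by them, rose by 0.13 ± 0.04 (adjusted p = 0.028) and Mt1, metallothionein-1, fell from 7.98 and 9.73 to 4.79 and 5.39. Of 10 tested clock genes 3 rose and 1 fell, the fall being Ciart, a repressor of the clock, from 1.32 and 1.01 to 0 and 0.0262 FPKM. Of 17 tested heat shock and endoplasmic reticulum genes 8 rose and 2 fell. Hspe1, a mitochondrial cochaperonin, and Pdia4, a disulfide isomerase, were DEGs, the first rising from 0.494 and 1.04 to 2.98 and 2.76 FPKM and the second from 0.275 and 0.131 to 1.47 and 1.6. The abundant chaperone gene Hspa8 rose from 200.1 and 196 to 307 and 285 FPKM and Dnajb1 fell from 62.5 and 63.8 to 42.5 and 41.1. Of 31 tested glycolysis and hypoxia genes 5 rose and 12 fell, none as a DEG, with a median of -0.11. Ero1l, an oxidase of the endoplasmic reticulum, rose from 4.84 and 4.58 to 8.23 and 8.44 FPKM and Hk2, a hexokinase, fell from 3.54 and 3.42 to 2.02 and 2.31. Of 21 tested BCL2 family and survival genes 3 rose and 4 fell, and Pim2, a survival kinase, was a DEG at 0.223 and 0.359 FPKM in WT and 1.94 and 1.7 in cKO. Ciart, Pdia4 and Pim2 reached the filter in a single genotype, so they had to differ.

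Large complexes were spread around zero. Of 82 tested cytosolic ribosomal protein genes 16 rose and 8 fell with a median of 0.05, of 59 mitochondrial ones 16 rose and 11 fell, of 75 respiratory chain subunits 18 rose and 14 fell, and of 44 proteasome subunits 14 rose and 7 fell. Their DEGs were single weak members, of which Mrps22, Psmg4 and Atp5s reached the filter in a single genotype and had to differ. Mrps22 rose from 0.250 and 0.329 to 2.65 and 2.09 FPKM and Mrpl23 from 1.17 and 1.45 to 3.26 and 4.07, while Mrpl13 fell, all 3 of the mitochondrial ribosome. Of the respiratory chain, Ndufa12 of complex I fell from 4.6 and 3.44 to 0 and 1.64 FPKM, a call lost under 7 of the alternatives, and Atp5s read 2.11 and 1.98 in WT and had no read in cKO. Psmg4, a proteasome assembly chaperone, rose from 0.822 and 0.361 to 2.63 and 3.7 FPKM. Among abundant proteasome genes Psmc5 rose from 13 and 15.9 to 28.4 and 28.4 and Psmb2 fell from 91.7 and 101 to 65.9 and 76.9. Of the 3 Y-linked genes tested, Ddx3y fell from 11 and 10.9 to 9.56 and 8.99 FPKM, a call that 7 of the alternatives did not make, and Eif2s3y and Kdm5d were not called. Uty, also Y-linked, lay below the filter with 1.03 and 0.971 FPKM in WT and 0.240 and 0.154 in cKO.

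Whether the changes differed from those in lung was tested as the difference between the genotype effect in PB and that in lung neutrophils. This used 1 fit of 8 libraries over 7560 genes, where 48.2% of genes passed. The paper's methods describe enzyme digestion of lung tissue. Its tissue comparison used perfused lungs, and it reports that perfusion cleared red cells. Tissue and preparation therefore cannot be told apart in this difference, globin genes included. PB effects below carry the SE of the separate fit of the 4 PB libraries. Lung effects and differences carry the SE of the fit of all 8. For Hba-a1 the effect was 5.32 ± 0.07 in PB and -0.91 ± 0.26 in lung, a difference of 6.24 ± 0.37 (adjusted p = 2.1e-05). For Commd10 it was 5.59 ± 0.14 in PB and 4.21 ± 0.13 in lung, so the rise was larger in PB by 1.39 ± 0.18 (adjusted p = 0.000555). Pibf1 showed -2.28 ± 0.09 in PB and 0.06 ± 0.10 in lung, a difference of -2.33 ± 0.14 (adjusted p = 2.1e-05). For H2-M3 the values were -1.48 ± 0.08 in PB and 0.51 ± 0.12 in lung, and for Fance -1.47 ± 0.12 in PB and 0.41 ± 0.11 in lung. Cdkn1a showed -1.66 ± 0.10 in PB and -0.14 ± 0.05 in lung. Ces1d had the smallest difference among the 12 plotted genes other than Vav1, at -0.72 ± 0.18 (adjusted p = 0.012). Of the abundant inflammatory falls, Cxcl2 also fell in lung (-0.40 ± 0.02, limma adjusted p = 2.48e-05) from 13892 and 13832 to 10278 and 10668 FPKM, and the PB effect was larger by -1.07 ± 0.03 (adjusted p = 1.46e-06). Ccrl2 fell in lung by a change of -0.19 ± 0.04, with a difference of -1.19 ± 0.05 (adjusted p = 6.81e-06). Ptgs2 rose in lung from 648 and 642 to 753 and 755 FPKM (0.22 ± 0.06), opposite to PB, with a difference of -1.60 ± 0.09 (adjusted p = 1.39e-05). Thbs1 rose there by 0.15 ± 0.05, with a difference of -1.57 ± 0.07 (adjusted p = 6.81e-06). All 24 named rises and falls passed this test, which their choice by a large PB change favours. Vav1 did not pass, with a difference of -0.11 ± 0.05 (adjusted p = 0.13).

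**Figure D5:**
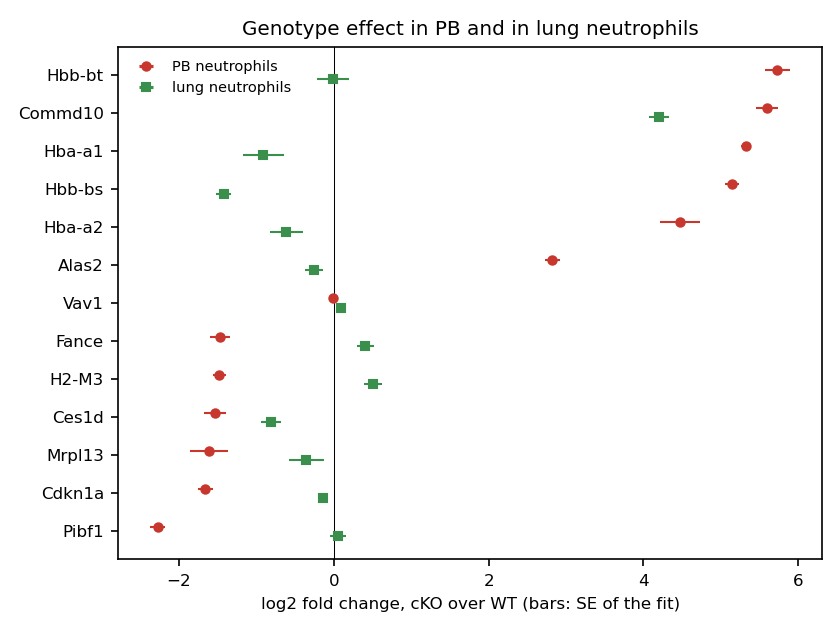
Log2 fold change of cKO over WT in PB (red circles) and lung (green squares) neutrophils. Shown are Vav1 and the 6 largest rises and 6 largest falls among DEGs whose higher group averaged at least 5 FPKM. SE bars are from the fit of the 4 PB libraries and the fit of all 8. Globin genes and Alas2 lie above 2 in PB and at or below 0 in lung, and Commd10 lies above 4 in both.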

How the data were processed

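Reads from poly(A) RNA were trimmed with fastp, aligned with HISAT2 to mm10 and counted with HTSeq per the submitters' processing notes, whose tool versions are not given in the sources used here. The labels and the methods name different library kits. The deposited table holds per-library FPKM values that the authors computed per gene, and for each group the mean of normalized counts (a signal) that the authors scaled by size factors. Its fold change, p and q columns belong to the authors' own comparison and were not used. Reads per gene and library were recovered from these deposited FPKM and mean values together, and 100% of those above 0 came out whole within 0.05 reads, or within the rounding of the file for the largest counts. In addition 27 gene symbols stored as dates were restored.

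Genes at 1 FPKM or more in at least 2 of 4 libraries were fitted as log2(FPKM + 1) with limma 3.58.1 (trend, robust) in R 4.3.3, with Benjamini-Hochberg adjustment over all genes tested. A second fit of 8 libraries tested the interaction with tissue, printed for the 12 genes of the plot and, after their values were seen, for the other 12 named rises and falls. On simulated data over 7256 genes with 200 changed by 4-fold, 100% were called and 0% falsely. The 200 were drawn only from genes with a mean of at least 5 FPKM. Their change lay well beyond the call limit, so full recovery was favoured by the setting. No gene with a mean below 5 FPKM, where 105 higher and 130 lower DEGs lay, was changed. Recovery there and for smaller changes was not tested. Alternatives changed the pseudocount, filter, scaling, threshold, tool (edgeR 4.0.16, DESeq2 1.42.0), the libraries and the replicate block. The WT and cKO libraries share replicate numbers, but deviations from group means of same-numbered libraries correlated at -0.01, so the numbers were not used as pairs. Intervals and floors cover counting error.

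Named were Piezo1, Vav1, Commd10 and genes near them, the 12 largest rises and 12 largest falls among DEGs whose groups did not overlap and whose higher mean was at least 5 FPKM, and of each of 44 lists its DEGs, its most changed and its most abundant members. Other members given as examples, and any given as not passing, were chosen after their values were seen. Members and lists were chosen with earlier results of these data known. Marker and pathway lists overlap in part, and a few of their members are counted but not reported here singly. The remaining libraries of the study were not analysed here, apart from lung and the WT PB libraries of the tissue comparison.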

Additional observations from a re-analysis of the deposited data

Results flagged for a closer look

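The genotype effect differed between PB and lung neutrophils, by the interaction test of the limma fit, for all 24 named rises and falls in PB. Because these genes were chosen for a large change in PB, and 48.2% of all 7560 genes passed the same test, the count of 24 is no result about them. The difference (PB minus lung, log2, ± SE) was 6.57 ± 0.13 for Hbb-bs, 6.24 ± 0.37 for Hba-a1, 5.74 ± 0.29 for Hbb-bt, 5.09 ± 0.30 for Hba-a2 and 3.08 ± 0.17 for Alas2. It was 1.39 ± 0.18 for Commd10, which rose in both tissues. Among the falls it was -2.33 ± 0.14 for Pibf1, -1.99 ± 0.17 for H2-M3, -1.88 ± 0.16 for Fance and -1.52 ± 0.07 for Cdkn1a. It was -1.25 ± 0.31 for Mrpl13 and -0.72 ± 0.18 for Ces1d, and both of these had values below 0 in lung as well. For the other rises the difference was 1.74 ± 0.22 for Cyp4f16, 1.14 ± 0.14 for Tab1, 1.10 ± 0.14 for Pik3ip1, 1.35 ± 0.13 for Zfp746, 1.4 ± 0.25 for Igflr1 and 1.31 ± 0.12 for Tmco6. For the other falls it was -1.07 ± 0.03 for Cxcl2, -1.57 ± 0.07 for Thbs1, -1.19 ± 0.05 for Ccrl2, -1.70 ± 0.12 for Gcc1, -1.60 ± 0.09 for Ptgs2 and -1.09 ± 0.21 for 1700037C18Rik. Cxcl2 and Ccrl2 also fell in lung, while Ptgs2 and Thbs1 rose there.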

How the results depend on the processing

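The DEG count of 265 (122 higher, 143 lower) stayed within 1.5 times without a filter, under both rescalings, with all 8 libraries and with reads thinned to equal depth (270, an alternative chosen after seeing the data). Leaving out 1 library gave 251 to 293 DEGs, 119 to 137 higher and 130 to 156 lower. The replicate block gave 263 (121 higher, 142 lower), and Ear2, Mmp25, Ndufa12 and Dusp6 lost their calls under it. A pseudocount of 0.1 gave 672 (316 higher, 356 lower), edgeR with TMM 735 (332, 403), edgeR with RLE 733 (335, 398), DESeq2 689 (317, 372) and edgeR on thinned reads, also chosen after seeing the data, 730 (322, 408). Requiring 5 FPKM left 60 (29, 31), adjusted p alone 3607 (1920, 1687) and a log2 limit of 0.5 1444 (727, 717). The 24 named rises and falls stayed DEGs in the same direction under every setting that tested them, 21 of them at 5 FPKM. Of 111 called genes named in the text, 87 kept their call in every alternative and 24 lost it in at least 1, most often where a WT library was left out. Among the latter were Fos, Cyba, Itgam, S100a8, Trpv2, Csf1r and Tsc22d3, all with small changes. Signs turned only for genes that did not pass the test: Vav1 at 0.024 without erythroid genes (leave-one-out -0.024 to 0.0093), Ccl3 (leave-one-out -0.078 to 0.17), Hilpda at -0.22 in edgeR on thinned reads and -0.098 on thinned reads in limma (leave-one-out -0.019 to 0.13), Rela at -0.022 in edgeR on thinned reads, Kdm5d (leave-one-out -0.0021 to 0.16) and Lcn2 (leave-one-out -0.018 to 0.11). The difference of Vav1 between tissues was 0.017 after rescaling to median ratios, and that of 1700037C18Rik no longer passed at a pseudocount of 0.1 (-0.81). The cause was not tested. At 9621120 to 15015766 reads, Piezo1 had 3 to 10 reads, and 2 libraries per group limit every p-value.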
